A study of Mus musculus with 6 samples.

Results

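The miR-130 and miR-301 family was followed through small RNA libraries of mouse iBN cells, taking every arm of the hairpins miR-130a, miR-130b, miR-301a and miR-301b, which gave 8 mature names of 1915 in the table. Each of the 8 names had 1 entry, so no choice between entries was needed, and 7 of the 8 had reads. The comparison was between induced iBN cells, given doxycycline at 1000 ng/ml over 72 hours (n = 3 libraries), and uninduced iBN cells (n = 3 libraries), with trials 1, 2 and 3 in each group. Cells of both groups carried the inducible PU.1 system, grew in suspension with GM-CSF and are labelled granulocyte-macrophage progenitors. The labels do not say whether the line is 1 clone or whether the trials were separate cultures, so the spread behind each p-value may be technical only. PU.1 itself and doxycycline-treated cells without the inducible gene were not measured in these libraries.

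A microRNA hairpin is cut into a 5p and a 3p arm, and the arm that is loaded into an Argonaute protein represses messenger RNAs that pair with its seed, the bases near its 5′ end. The 3p arms of miR-130 and miR-301 share a seed and are therefore grouped as a family with overlapping predicted targets. In granulocyte precursors miR-130a has been reported to repress C/EBP-epsilon, a transcription factor of late granulocyte maturation, so the summed level of the shared seed is of interest in cells of this lineage. No messenger RNA or protein was measured here.

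The mature sequences below show what the members share, with bases 2 to 8 in capitals, which is the seed. They are RefSeq sequences on GRCm38.p6, the assembly that mm10 names, and 7 of the 8 members had a mature entry there.
mmu-miR-130a-3p: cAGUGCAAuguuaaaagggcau
mmu-miR-130b-3p: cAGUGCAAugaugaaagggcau
mmu-miR-301a-3p: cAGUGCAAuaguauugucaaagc
mmu-miR-130a-5p: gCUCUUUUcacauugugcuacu
mmu-miR-130b-5p: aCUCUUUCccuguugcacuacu
mmu-miR-301a-5p: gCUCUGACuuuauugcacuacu
mmu-miR-301b-5p: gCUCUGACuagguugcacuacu
For mmu-miR-301b-3p the hairpin is given instead, with the same 7 letters in capitals.
Mir301b hairpin: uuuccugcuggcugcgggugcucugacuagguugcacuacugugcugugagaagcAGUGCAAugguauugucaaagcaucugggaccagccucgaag
The letters AGUGCAA, read on the hairpin's own strand with overlaps allowed, occurred once in each of the 4 hairpins and in 12 of the 1005 RefSeq hairpins searched (1.19%). The 3p arms thus form 1 seed group, while the 5p arms fall into 3 seeds, of which miR-301a-5p and miR-301b-5p share CUCUGAC.

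Beyond the seed, several members come in near-identical pairs. With positions counted from 1 at the 5′ end, miR-130b-3p differs from miR-130a-3p by U11A and A13G, and miR-301b-5p differs from miR-301a-5p by U10A, U11G and A12G. The 5p arms of miR-130a and miR-130b are less alike, with 7 differing bases of 22. The stretch of the miR-301b hairpin closest to miR-301a-3p differs from it by A10G alone. How many mismatches were allowed in counting is not given in the sources used here. The split of reads between miR-301a-3p and miR-301b-3p, and between miR-130a-3p and miR-130b-3p, is therefore uncertain, and the part of misassigned reads in their counts was not tested.

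The 4 hairpins come from 3 loci. Mir130b (chr16:17124061-17124142) and Mir301b (chr16:17124400-17124496) lie 257 bases apart on the minus strand, inside an intron of 2610318N02Rik in GENCODE M21. Mir301, which encodes miR-301a (chr11:87113004-87113089, plus strand), lies in an intron of Ska2, a gene for a subunit of the spindle and kinetochore complex, and on the same strand as it. Mir130a (chr2:84741115-84741178, minus strand) overlaps no annotated gene other than its own.

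Read depth and cell identity were checked first. The induced libraries held 11379870, 9089319 and 13946613 reads and the uninduced ones 9162211, 8697384 and 11714847 reads, with 1 entry per mature name. Summed over 5 haematopoietic microRNAs, of which miR-146b-5p, miR-191-5p and miR-142a-5p were the most abundant, the level was 314818 to 396241 CPM (counts scaled to library size, here with TMM factors) in induced and 307857 to 411434 CPM in uninduced libraries. Of these, miR-142a-5p had 56226 to 76326 CPM in induced and 53789 to 73979 CPM in uninduced libraries. miR-223-3p had 2798 to 7181 CPM in induced and 4321 to 8489 CPM in uninduced libraries. Most of the sum came from miR-146b-5p (mean 146951 CPM induced, 142594 CPM uninduced) and miR-191-5p (124510 CPM and 130732 CPM). How specific miR-146b-5p and miR-191-5p are to blood cells was not tested. The erythroid (3 names), liver (1) and muscle (3) lists each summed to at most 0.534 CPM in any library, with miR-144-3p and miR-206-3p at 0 reads. Of the neural markers, miR-124-3p was at 0 and miR-9-5p at 0.913 to 1.46 CPM in induced and 0.222 to 0.458 CPM in uninduced libraries. The third, miR-128-3p, was at 302 to 353 CPM in induced and 318 to 397 CPM in uninduced libraries. The arms of miR-126a, listed as endothelial, summed to 605 to 951 CPM in induced and 588 to 920 CPM in uninduced libraries. How specific they are to endothelial cells was not tested. Lymphoid markers, mostly miR-181a-5p, summed to 28922 to 36938 CPM in induced and 36932 to 39208 CPM in uninduced libraries. Among them, miR-150-5p had only 32.0 to 38.6 CPM in induced and 25.4 to 44.9 CPM in uninduced libraries. How specific this list is to lymphoid cells was not tested. The edgeR log2 fold changes were -0.29 for miR-181a-5p, -0.14 for miR-181b-5p and 0.16 for miR-150-5p. edgeR and DESeq2 called 0 of these 3, against 32 and 37 of all 525 microRNAs tested. An unadjusted edgeR p below 0.05 was found for 1 of the 3, against 109 of the 525 (20.8%). With the trial as a block, edgeR called miR-181a-5p lower (adjusted p = 0.0255), beside 114 calls among the 525 (21.7%). Epithelial markers moved with the groups, at 79.1 to 99.2 CPM in induced and 31.4 to 38.9 CPM in uninduced libraries, and 3 of the 4 tested passed the test upward, namely miR-200b-3p, miR-200c-3p and miR-141-3p, against 32 of all 525 microRNAs tested (6.1%). DESeq2 called 2 of the 4, against 37 of the 525, the edgeR adjusted p of miR-200b-3p was 0.0499, and miR-205-5p had 7 reads in all. Their part in the family's values was not tested.

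Nearly all of the family's signal came from miR-301a-3p and miR-130b-3p, which stood at about equal levels in both groups, whereas miR-130a, the member with the reported role in granulocytes, was rare, at 42 to 58 reads per library. miR-301a-3p had 2065, 2656 and 2454 CPM in induced cells and 1784, 2267 and 2254 CPM in uninduced cells, in the order of trials 1, 2 and 3. miR-130b-3p had 2069, 1894 and 2251 CPM in induced cells and 2042, 2163 and 2225 CPM in uninduced cells. The groups overlapped for both, and in bulk RNA such as this, a change in the share of cells that make a microRNA and a change in its level per cell cannot be told apart.

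miR-301b-3p, the cluster partner of miR-130b, was about an order of magnitude lower, with 221, 279 and 296 CPM in induced cells and 209, 243 and 274 CPM in uninduced cells. miR-130b-5p, the lesser arm of its hairpin, had 265, 197 and 257 CPM in induced cells and 239, 191 and 222 CPM in uninduced cells. The ranges of both arms overlapped between the groups.

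The remaining members were rare. miR-301a-5p, the lesser arm of the Ska2 intronic hairpin, had 10.8, 7.85 and 13.3 CPM in induced cells and 7.58, 4.89 and 9.80 CPM in uninduced cells. It was higher in the induced library of each of the 3 trials, although the groups overlapped because the trials differed. miR-301b-5p had 1.25, 1.91 and 1.91 CPM in induced cells and 2.35, 2.11 and 1.83 CPM in uninduced cells, from 58 and 61 reads.

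miR-130a-3p had 58, 42 and 58 reads in induced libraries and 49, 56 and 52 reads in uninduced libraries, or 4.82, 4.71 and 4.26 CPM induced and 5.23, 6.22 and 4.76 CPM uninduced. It ranked 376 of the 525 microRNAs tested by mean level, against 45 for miR-301a-3p and 47 for miR-130b-3p. Of the reads of miR-130a-3p and miR-130b-3p together, miR-130a-3p took 0.223% ± 0.031 in induced and 0.252% ± 0.037 in uninduced libraries (SD, n = 3 each). miR-130a-5p, the other arm of that hairpin, had 0 reads in every library, which allows up to 0.0872 CPM over the induced group and 0.101 CPM over the uninduced group on a limit of 3 counts per group. The limit covers counting error only, since no molecular identifiers are described.

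**Figure D1:**
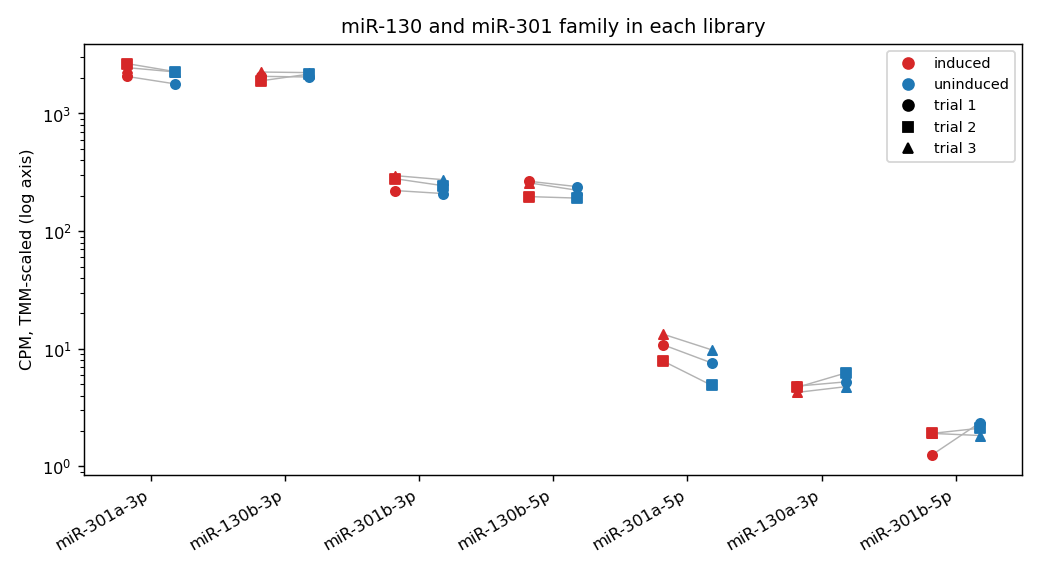
Level of each member with reads, in TMM-scaled CPM on a log axis, with induced libraries in red on the left and uninduced ones in blue on the right of each pair; symbols mark the trial and grey lines join libraries of 1 trial. The members span from 1784 to 2656 CPM for miR-301a-3p to 1.25 to 2.35 CPM for miR-301b-5p, and the groups overlap for each member.

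Ordered by mean level over the 6 libraries, the members were miR-301a-3p (2247 CPM), miR-130b-3p (2107 CPM), miR-301b-3p (254 CPM), miR-130b-5p (228 CPM), miR-301a-5p (9.03 CPM), miR-130a-3p (5.00 CPM) and miR-301b-5p (1.89 CPM). Neighbours within the pairs miR-301a-3p and miR-130b-3p, miR-301b-3p and miR-130b-5p, and miR-301a-5p and miR-130a-3p had overlapping ranges over the libraries, so their order was not separated from the spread. These mature RNAs are of nearly equal length, so no length scaling was applied, and the efficiency with which each sequence enters a library was not measured.

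No member passed edgeR's quasi-likelihood test of induced over uninduced cells at an adjusted p of 0.05. Of the 525 microRNAs tested, 32 were called (6.1%), and 0 of the 7 members tested were among them. The groups did not overlap for 145 of the 525 (27.6%) and for 0 of the 7 members. No member reached an unadjusted p under 0.05 either, which 109 of the 525 (20.8%) did. DESeq2 called 0 of the 7 members and 37 of the 525. The median log2 fold change was 0.13 over the 7 members and 0.02 over all 525, and the median absolute change was 0.19 over the members and 0.22 over all.

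The intervals bound how large a change these libraries could hide. miR-130b-3p had a log2 fold change of -0.05 (95% interval -0.30 to 0.21, edgeR adjusted p = 0.847), the narrowest in the family. miR-301a-3p had 0.19 (-0.13 to 0.50, edgeR adjusted p = 0.508) and miR-301b-3p 0.13 (-0.22 to 0.49, edgeR adjusted p = 0.681). For miR-130a-3p the log2 fold change was -0.23 (-0.69 to 0.23, edgeR adjusted p = 0.571), with the induced library below the uninduced one in 3 of 3 trials. Among the 5p arms, miR-130b-5p had 0.14 (-0.21 to 0.50) and miR-301b-5p -0.31 (-0.95 to 0.32). miR-301a-5p had 0.52 (-0.11 to 1.15, edgeR adjusted p = 0.326), the largest of the family with all 6 libraries. It was 0.29 without induced replicate 3, where miR-301b-5p had -0.47. It was 0.31 without uninduced replicate 2 and 0.78 without uninduced replicate 3.

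Libraries of the same trial deviated together, and a fit with the trial as a block changed the call of 1 member. With the block, miR-301a-5p rose by 0.52 on the log2 scale (SE 0.14, 95% interval 0.22 to 0.82, edgeR adjusted p = 0.0177), higher in 3 of 3 trials. The blocked test called 114 of 525 microRNAs (21.7%), and 1 of the 7 members was among them, which is no larger a share than in the whole table. The call was lost when 1 trial was left out, with blocked adjusted p of 0.0783, 0.0960 and 0.111 without trials 1, 2 and 3, while the log2 change stayed at 0.54, 0.47 and 0.57. miR-301a-3p, from the same hairpin, was also higher in 3 of 3 trials, with a blocked log2 change of 0.19 (95% interval 0.02 to 0.35). Its blocked edgeR p was 0.0288 and its blocked adjusted p 0.0939. With the block, 2 of the 7 members and 195 of the 525 microRNAs had an unadjusted edgeR p under 0.05. miR-301b-3p and miR-130b-5p were higher in 3 of 3 trials as well, miR-130b-5p in 2 of 3 without TMM factors. miR-130b-3p was higher in 2 of 3 trials, 1 of 3 with RLE factors, and miR-301b-5p in 1 of 3. Over all tested microRNAs, 152 (29.0%) were higher and 155 (29.5%) lower in every trial.

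**Figure D2:**
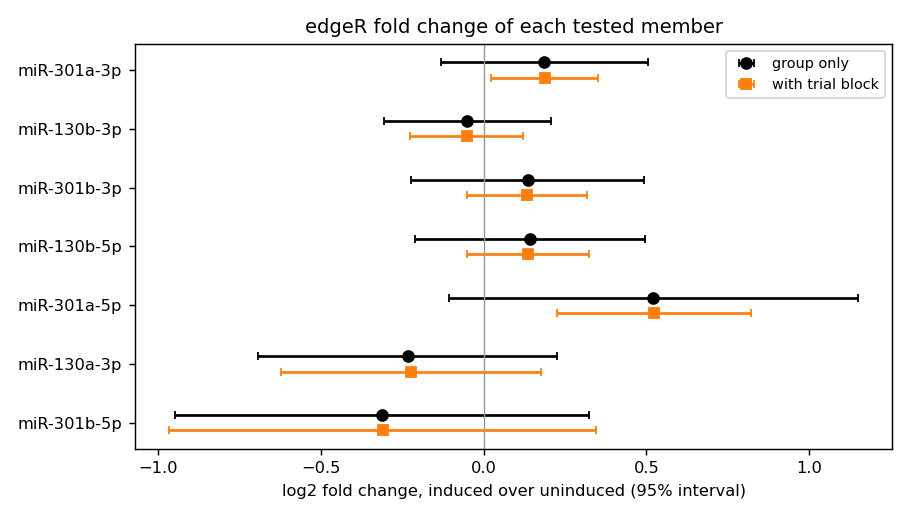
Log2 fold change of induced over uninduced cells for the 7 tested members, with 95% intervals, from the fit on group alone (black circles) and with the trial as a block (orange squares). The estimates barely differ between the fits, and miR-301a-5p is called only in the blocked one, with an interval of 0.22 to 0.82.

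Because the 3p arms share a seed, their CPM were also summed in each library, as a description without a test. The seed pool was 4360, 4834 and 5005 CPM in induced cells and 4040, 4679 and 4757 CPM in uninduced cells, in trials 1, 2 and 3. The means were 4733 CPM ± 334 induced and 4492 CPM ± 394 uninduced (SD, n = 3 each), a log2 ratio of 0.08. The group ranges overlapped, and the induced library was the higher of the pair in each trial. As a share of all reads, without TMM factors, the order in trial 2 was the other way round, at 0.474% in induced and 0.484% in uninduced cells.

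Within this pool miR-301a-3p made up 50.4% ± 3.98 in induced and 46.7% ± 2.23 in uninduced cells (SD, n = 3 each). miR-130b-3p made up 43.9% ± 4.24 in induced and 47.8% ± 2.35 in uninduced cells. miR-301b-3p added 5.59% ± 0.45 in induced and 5.37% ± 0.33 in uninduced cells, and miR-130a-3p 0.098% ± 0.013 in induced and 0.121% ± 0.018 in uninduced cells. The pool was thus almost evenly shared between the Ska2 locus and the chromosome 16 cluster, and miR-130a-3p added little.

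**Figure D3:**
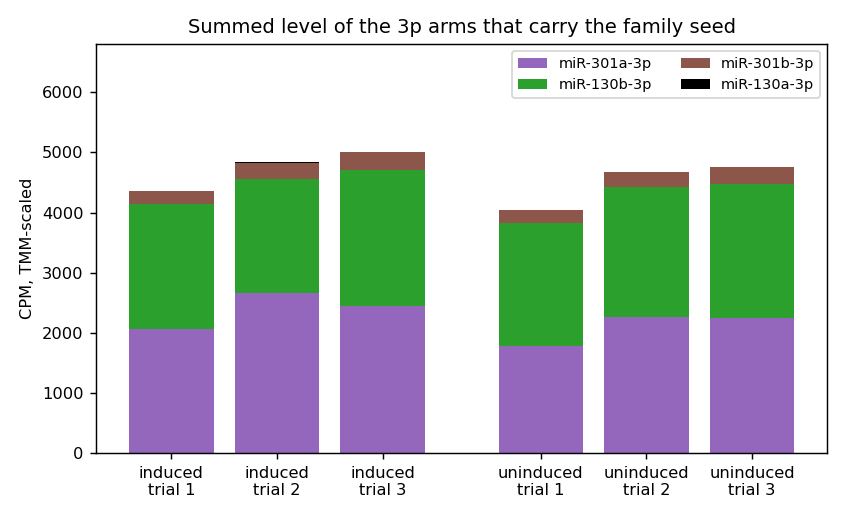
Stacked bars of the TMM-scaled CPM of the 3p arms that carry the family seed, by library, with the 3 induced libraries left of the 3 uninduced ones. Totals lie between 4040 and 5005 CPM, miR-301a-3p and miR-130b-3p fill most of each bar, and miR-130a-3p is too small to see.

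RefSeq held 4 further mature microRNAs with the same bases 2 to 8, shown because they could add to the pool.
mmu-miR-130c: cAGUGCAAuguuccaaggugug
mmu-miR-721: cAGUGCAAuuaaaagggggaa
mmu-miR-6341: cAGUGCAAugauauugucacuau
mmu-miR-6389: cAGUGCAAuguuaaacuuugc
Each of these had 0 reads in all 6 libraries, which allows up to 0.0469 CPM over the 63990244 reads together. Among 829 seeds with reads, taken over names with a RefSeq mature sequence (92.4% of the reads), AGUGCAA ranked 23rd by summed level without miR-301b-3p. Its log2 ratio of group means was 0.07, and 74 of the 96 seeds of at least 100 CPM had a larger absolute ratio.

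The loci were compared within libraries by the log2 ratio of their 3p arms, over the 6 pairs of arms. The ratio of miR-301a-3p over miR-130b-3p was 0.20 ± 0.25 in induced and -0.04 ± 0.14 in uninduced cells (SD, n = 3 each), a difference of 0.24 (two-sided exact permutation p = 0.30, adjusted p = 0.45). Inside the chromosome 16 cluster, miR-301b-3p over miR-130b-3p was -2.97 ± 0.23 in induced and -3.16 ± 0.13 in uninduced cells, a difference of 0.18 (exact permutation p = 0.30, adjusted p = 0.45). The larger differences were those against the rare miR-130a-3p, 0.41 for miR-301a-3p and 0.36 for miR-301b-3p (exact permutation p = 0.20, adjusted p = 0.45 for each). miR-130b-3p over miR-130a-3p differed by 0.18 and miR-301b-3p over miR-301a-3p by -0.05 (exact permutation adjusted p = 0.48 and 0.50). This test did not pair the trials. The SD of the 3 trial differences was 0.037 for miR-130b-3p over miR-130a-3p, which rests on 42 to 58 miR-130a-3p reads per library. It was 0.19 for miR-301a-3p and 0.21 for miR-301b-3p over miR-130a-3p. Over miR-130b-3p it was 0.16 for miR-301a-3p and 0.18 for miR-301b-3p, and 0.063 for miR-301b-3p over miR-301a-3p. Of the 6 ratios, 5 were higher in induced cells in 3 of 3 trials and miR-301b-3p over miR-301a-3p in 0 of 3, but the pairs share arms and are not independent. An exact permutation test of 3 libraries against 3 cannot go below p = 0.10.

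The closest profiles in the family were those of miR-301a-3p and miR-301b-3p, from different loci. By the root mean square difference of log2 CPM, each profile centred on its mean, miR-301b-3p was the closest of 164 microRNAs of at least 100 CPM to miR-301a-3p, at 0.087, although the loci lie on chromosomes 16 and 11. The next closest were miR-182-5p at 0.099 and miR-30e-5p at 0.109, and the median over the 164 was 0.254. miR-130b-3p ranked 44th at 0.206. From miR-301b-3p itself, its cluster partner miR-130b-3p lay at 0.181. The members closest to miR-130b-3p were miR-130b-5p at 0.174 and miR-301b-3p at 0.181, both of its own locus. Members of other loci were little further, with miR-130a-3p at 0.193 and miR-301a-3p at 0.206, so the distances did not clearly group members by locus. These distances describe 6 libraries that share their trials, and miR-301a-3p and miR-301b-3p are the pair that differ at 1 base in sequence. The part of misassigned reads in this likeness was not tested.

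Both miR-301 3p arms were lowest in trial 1 in both groups, a pattern shown by 53 of the 525 microRNAs (10.1%), whereas miR-130b-5p and miR-301a-5p were lowest in trial 2 in both groups. miR-301b-3p took 9.98% ± 0.69 of the reads of both miR-301 3p arms in induced and 10.3% ± 0.58 in uninduced libraries (SD, n = 3 each). Over the libraries that share lay between 9.50% and 10.8%, with exact 95% binomial intervals between 9.15% and 11.2%.

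**Figure D4:**
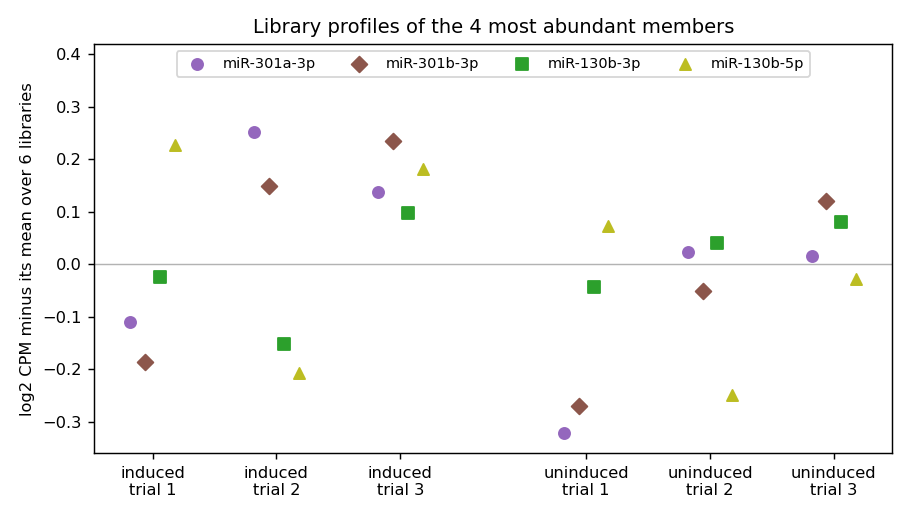
Log2 CPM minus its mean over the 6 libraries for the 4 most abundant members, with induced libraries left of uninduced ones and points set side by side for legibility. The purple circles of miR-301a-3p and brown diamonds of miR-301b-3p stay close (root mean square difference 0.087). The arms of miR-130b lie below them in trial 2 of the induced group and above them in trial 1 of both groups.

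The arms were then compared within each hairpin. All hairpins of the family favoured the 3p arm. The 5p arm took 10.3% ± 0.99 of the miR-130b reads in induced and 9.22% ± 1.18 in uninduced cells (SD, n = 3 each). It took 0.451% ± 0.136 of the miR-301a reads in induced and 0.357% ± 0.123 in uninduced cells, and 0.626% ± 0.061 of the miR-301b reads in induced and 0.880% ± 0.225 in uninduced cells. With 15 to 26 reads of miR-301b-5p per library, its exact 95% binomial intervals ran from 0.314% to 1.68% over the libraries.

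On a log2 scale with a prior count of 2, the mean 5p over 3p ratio was -7.98 for miR-301a, -6.94 for miR-301b and -3.21 for miR-130b. Of 150 hairpins with both arms tested, 11 were more unequal than miR-301a and 22 than miR-301b, and the median absolute ratio over the 150 was 3.19, next to that of miR-130b. Hairpins with an arm too rare to be tested, such as miR-130a, are not among the 150, so the most one-sided ones may be missing.

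**Figure D5:**
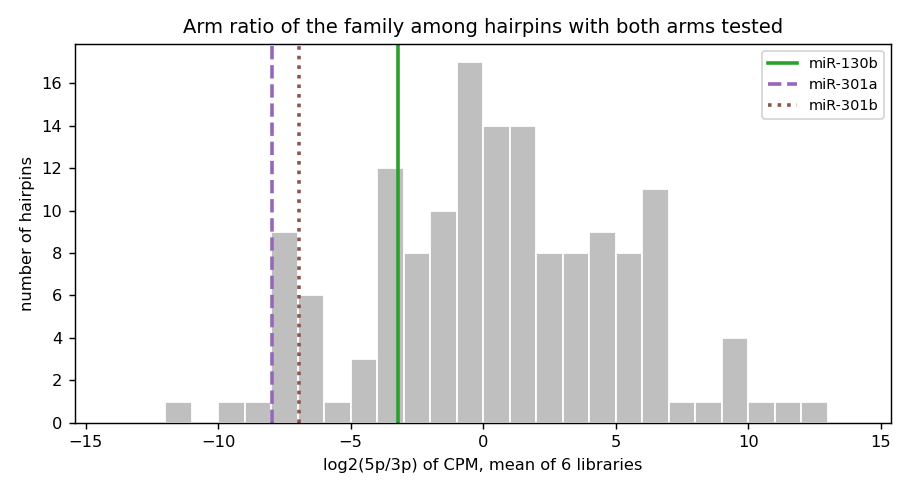
Number of hairpins by their mean log2 5p over 3p ratio of CPM over 6 libraries, for the 150 hairpins with both arms tested; vertical lines mark the family. Among these, miR-301a (-7.98) and miR-301b (-6.94) lie in the tail that favours the 3p arm, and miR-130b (-3.21) lies closer to the centre. Hairpins with an arm too rare to be tested are not shown.

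Induction did not shift the arm ratio of any family hairpin past the test. limma on the log2 ratio called 1 of 150 hairpins (0.667%) and 0 of the 3 family hairpins tested, none of which had an unadjusted p under 0.05, against 6 of the 150 (4%). The difference of induced minus uninduced was 0.19 for miR-130b (95% interval -0.25 to 0.63), 0.34 for miR-301a (-0.35 to 1.04) and -0.44 for miR-301b (-1.19 to 0.32), each with a limma adjusted p of 0.984. The value for miR-301a was 0.02 without uninduced replicate 2 and 0.62 without induced replicate 2. With the trial as a block, 14 of 150 hairpins (9.33%) were called and again 0 of the 3. miR-301a then had an unadjusted limma p of 0.039 and an adjusted p of 0.197. In trial 2 the 5p share of both miR-130b and miR-301a was the lowest of its group in induced as well as uninduced cells, as was the case for the arm ratio of 34 of the 150 hairpins (22.7%).

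Among 14 microRNAs with reported roles in granulocyte development, the setting in which miR-130a has been described, 13 were tested and edgeR called 0 of them, against 6.1% of all tested. An unadjusted edgeR p below 0.05 was found for 2 of the 13, against 109 of all 525 (20.8%). DESeq2 called 0 of the 13, against 37 of the 525. The median log2 fold change of the 13 was -0.16, against 0.02 over all tested. miR-21a-5p, the most abundant of them, had 0.54 (SE 0.16, edgeR adjusted p = 0.0746). miR-142a-3p, a microRNA of blood cells, had 0.05 (SE 0.13), and miR-182-5p, reported to act on C/EBP-alpha, 0.27 (SE 0.14). With the trial as a block, miR-182-5p (edgeR adjusted p = 0.0268) and miR-125a-5p (0.0069) were called higher and miR-125b-5p (0.0393) lower, 3 of 13 beside 114 of all 525 tested (21.7%).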

How the data were processed

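Small RNA libraries of 6 samples were compared, 3 induced and 3 uninduced, as the labels title them. The authors deposited raw read counts per mature microRNA entry, with the unit named per the file headers. Per the labels' protocols, RNA was purified with miRNeasy and single-read libraries were prepared with the TruSeq small RNA kit. The submitters' processing notes list Trim Galore (0.4.0), DESeq2 (as 2.1.8.0) and mm10, and per the series' design text reads were aligned to miRBase. Not given in the sources used here are the counter, the mismatches allowed, the handling of multiple matches and the use of strand. PCR copies cannot be told from molecules, so the binomial intervals and the limits for 0 reads cover counting error only. The intervals of fold changes and arm ratios also include the spread between libraries.

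For each of 1915 mature names the entry with the highest total of the 2061 entries was kept, which left out 17.5% of the reads; the sum of entries was an alternative. edgeR 4.0.16 in R 4.3.3 was used with TMM factors, filterByExpr by group, robust glmQLFit and two-sided glmQLFTest on group alone, with Benjamini-Hochberg adjustment at 0.05 over the 525 names kept. Intervals of fold changes use the fit's moderated degrees of freedom. Arm ratios were fitted by limma 3.58.1 as differences of log2 CPM, prior count 2. Both fits were tested on simulated data, which were drawn without an effect of the trial and so do not test the pairing. DESeq2 1.42.0, other scalings, filters and prior counts, and fits without single libraries were alternatives. Ratios of 3p arms were tested with an exact permutation test in SciPy 1.17.1.

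Chi-square per degree of freedom between libraries of a group was at least 98.7, beyond sampling noise, so each counted as 1 replicate. The labels give trials 1, 2 and 3 in both groups. After subtraction of group means, the log2 CPM of same-trial libraries had correlations over microRNAs of 0.33, 0.45 and 0.53, all above 0.1. Those of libraries from different trials lay between -0.45 and 0.04, and the subtraction itself ties these values together. On this ground the trial numbers were taken to pair the samples.

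The members and lists were chosen with earlier results of these data known. Named microRNAs are the 8 members, others with their seed, the 3 of at least 100 CPM closest to the most abundant member, and from the lists the called members and the 3 most abundant tested ones; other markers, such as those at 0, were named after their values were seen.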

Additional observations from a re-analysis of the deposited data

How the results depend on the processing

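Over all microRNAs, the 32 calls of induced over uninduced became 114 with the trial as replicate block, 18 with at least 10 CPM on average, 25 with RLE factors, 22 without factors and 37 with DESeq2, and lay between 12 and 41 when 1 library was left out. Chosen after seeing the data, leaving out trial 1 or trial 2 in both groups gave 11 each, and the blocked fit gave 66, 60 and 12 without trials 1, 2 and 3. The count of family members called was 0 in these fits except the block with all trials, where it was 1, miR-301a-5p. With at least 10 CPM on average only 4 members were tested, and miR-301a-5p was not among them. Omitting any 1 library also gave 0.

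Of 130 alternative values of the members' log2 changes, 127 kept direction and side of the threshold, 1 passed it (miR-301a-5p with the block), and 2 changed sign. These were miR-130b-3p, at 0.0132 without trial 2 in both groups and 0.0137 with the block without trial 2, against -0.05. The 31 alternative arm ratio changes kept direction and side, between 0.0199 and 0.623 for miR-301a. The 48 changes of ratios between 3p arms kept direction; their exact test cannot pass 0.05 in any setting, with p of 0.25 for each of the 6 with the replicate block, so the 0 calls say nothing of stability.

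Hairpins called by arm ratio went from 1 to 0 with a prior count of 0.5, 2 with a prior count of 10, 0 with at least 10 CPM in the rarer arm and 14 with the block, and from 1 to 3 without 1 library. The log2 ratio of the seed pool, 0.08, lay between 0.0046 and 0.131. For miR-301b-5p and miR-130a-3p counts of 15 to 58 reads per library limit precision.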
